A study of Mus musculus with 12 samples.

Results

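Long-term hematopoietic stem cells (LT-HSCs) were compared with short-term hematopoietic stem cells (ST-HSCs) after culture with nicotinamide riboside (NR). The comparison takes all libraries whose labels name an HSC type and NR: 3 LT-HSC and 3 ST-HSC libraries, which make 6 of the 12 RNA-seq libraries of the study. Both cell types came from mouse bone marrow and were sorted as Lin-, c-Kit+, Sca-1+, CD150+ and CD48- cells. LT-HSCs were CD34- and ST-HSCs were CD34+, so the sort separated them by 1 surface protein. All 6 cultures lasted 2 days. The medium was Stemline II, to which SCF (100 ng/ml) and the reagent the labels call Flt3 (2 ng/ml) were added. They received NR at 1 mM, given again after 24 h. The other 6 libraries, 3 LT-HSC and 3 ST-HSC, came from the same culture without NR and serve as the background for the comparison. No source used here gives the strain, genotype, age or number of the mice, or whether mice were pooled. No label says that libraries of a group came from separate mice or cultures, so p-values measure the spread between these libraries, which may be technical.

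An HSC replenishes all blood lineages. LT-HSCs sustain blood formation after serial transplantation, whereas ST-HSCs and the multipotent progenitors below them contribute for a limited time and are closer to lineage commitment. In mouse marrow, gain of the sialomucin CD34 and of the receptor tyrosine kinase Flt3 marks this transition. The transcription factor Mecom and, in platelet-biased stem cells, von Willebrand factor (Vwf) are known as marks of the stem cell end. NR is a form of vitamin B3 that cells turn into the redox cofactor NAD. Expression is given below as CPM, the read count of a gene scaled to a common library size by each library's effective total. CPM values compare libraries within a gene and not genes with each other, since they are not divided by transcript length. A log2 change is LT-HSC minus ST-HSC and carries its standard error (SE). A gene was called where edgeR's quasi-likelihood test gave a Benjamini-Hochberg adjusted p under 0.05 over all genes tested, and all adjusted p-values below come from that test unless another is named.

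The 6 NR libraries held between 24589718 and 35456821 reads assigned to genes. Reads over no annotated gene made up between 9.17% and 13.0% in the libraries numbered 1 and 2, but 28.5% in LT-HSC NR library 3 and 26.2% in ST-HSC NR library 3. The first principal component (71.2% of variance) placed those 2 libraries at 128 and 113, against values between -108 and -4.06 for the other 4. The second component (12.1%) separated the cell types, with LT-HSCs between 19.5 and 48.6 and ST-HSCs between -50.5 and -23.1. Of markers of other blood cells, 15 of 21 lymphocyte genes and 8 of 20 monocyte, macrophage and dendritic cell genes stayed under 1 CPM in all 6 libraries, and none of the markers was at 0 reads in every library. Cd3d and Cd3e, parts of the T cell receptor complex, reached at most 0.207 and 0.703 CPM, and the macrophage gene Adgre1 at most 1.13 CPM. Other members of these lists were present in all 6 libraries: Lyz2 at 308 to 406 CPM, Fcer1g at 54.9 to 135 CPM, Cd68 at 15.3 to 33.9 CPM and the B cell gene Cd79b at 23.7 to 34.9 CPM. The summed CPM of the monocyte, macrophage and dendritic cell list was 426 to 532 in LT-HSCs and 510 to 614 in ST-HSCs. The summed CPM of 29 granulocyte-primed genes was 537 to 670 in LT-HSCs and 769 to 847 in ST-HSCs. In bulk RNA, fewer cells of a type and less RNA per cell cannot be told apart, and the part that any such cells play in the results below was not tested.

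Of the sort markers, Cd34 followed the labels at the RNA level, while Slamf1 and Ly6a also differed between the cell types. Cd34 measured 266, 230 and 230 CPM in the LT-HSC NR libraries and 740, 708 and 665 CPM in the ST-HSC NR libraries. The groups did not overlap, and the log2 change was -1.54 ± 0.07 (SE, n = 3 against 3; edgeR adjusted p = 1.31e-07). Since the sort used the CD34 protein, this is a check of the labels. Flt3 measured 8.58, 6.63 and 11.5 CPM in LT-HSCs and 45.8, 33.1 and 49.5 CPM in ST-HSCs. Its log2 change of -2.27 ± 0.20 (edgeR adjusted p = 1.68e-05) was the larger of both, although Flt3 was not part of the sort. Slamf1, which encodes CD150, was at 27.8, 35.4 and 25.1 CPM in LT-HSCs and at 10.3, 13.1 and 12.8 CPM in ST-HSCs. Ly6a, which encodes Sca-1, was at 36.7, 38.1 and 23.2 CPM in LT-HSCs and at 10.5, 6.56 and 7.01 CPM in ST-HSCs. Both cell types were sorted as positive for these proteins, yet their transcripts were higher in every LT-HSC library, with log2 changes of 1.29 ± 0.14 and 2.02 ± 0.24. Kit, the SCF receptor, lay between 1439 and 1716 CPM in LT-HSCs and between 1470 and 1586 CPM in ST-HSCs, with a log2 change of 0.02 ± 0.06 (edgeR adjusted p = 0.999). Cd48 was low in both, at 0.676, 1.55 and 0.259 CPM in LT-HSCs and 2.92, 2.86 and 1.93 CPM in ST-HSCs, and its log2 change of -1.63 ± 0.47 did not pass the test (edgeR adjusted p = 0.0622). With the replicate block it passed (-1.67, edgeR adjusted p = 0.0315), as it did without LT-HSC NR library 2 (adjusted p = 0.00882) or ST-HSC NR library 3 (adjusted p = 0.0422).

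Mecom and Vwf, the markers of the LT-HSC end, were higher in every LT-HSC NR library. Mecom, needed for HSC self-renewal, measured 187, 150 and 166 CPM in LT-HSCs and 90.8, 72.6 and 93.6 CPM in ST-HSCs, a log2 change of 0.97 ± 0.10 (edgeR adjusted p = 7.44e-05). Vwf measured 344, 317 and 265 CPM in LT-HSCs and 44.3, 82.2 and 60.3 CPM in ST-HSCs, a log2 change of 2.31 ± 0.18 (edgeR adjusted p = 4.83e-06). Neither gene overlapped between the cell types. All 4 of these markers kept their call in each alternative tried, including the omission of any NR library.

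**Figure D1:**
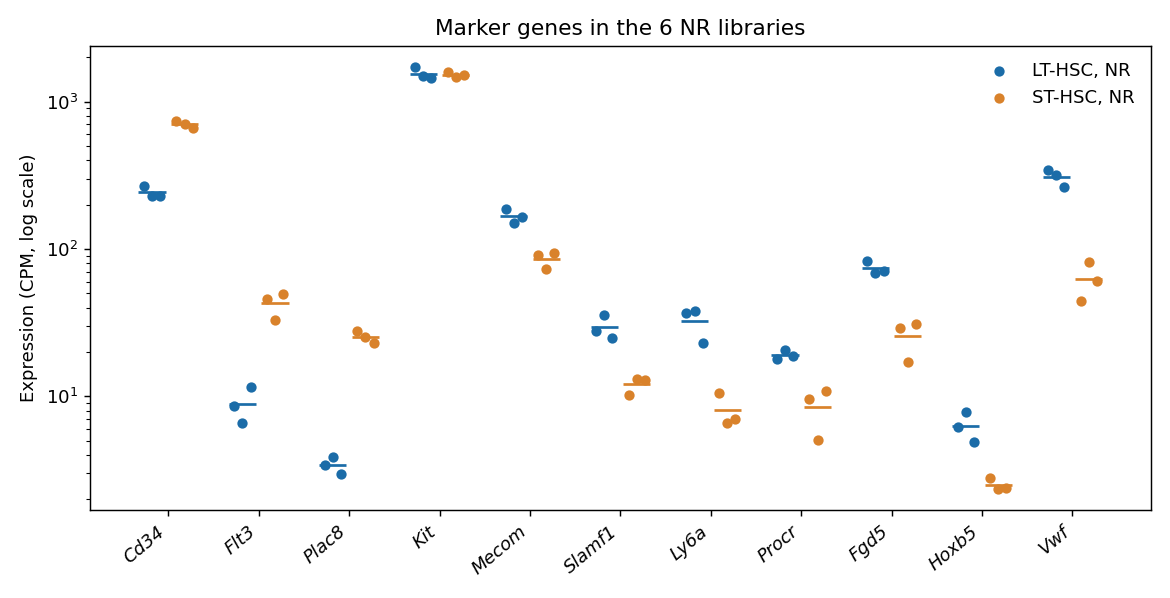
Expression of marker genes in the 6 NR libraries, in CPM on a log scale; points are libraries and short lines are group means. Cd34, Flt3 and Plac8 sit lower in every LT-HSC library, Kit overlaps, and Vwf and Mecom sit higher in every LT-HSC library.

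Of 19830 genes tested, 753 were higher and 451 lower in LT-HSCs under NR, which is 6.07% of the genes tested (3.8% higher and 2.27% lower). Of these 1204 genes, 1198 had no overlap between the 3 LT-HSC and the 3 ST-HSC values, against 17.6% of all genes tested (9.96% higher and 7.59% lower). Their median size was 0.71 on the log2 scale, and 414 exceeded 2-fold, 316 of them higher in LT-HSCs. The median log2 change over all genes tested was 0.02. The excess of higher over lower calls depended on scaling and on low genes. Higher genes made up 62.5% of the calls, but upper-quartile factors gave 869 higher and 765 lower, and a minimum mean of 5 CPM gave 945 higher and 899 lower. The count of lower genes did not move by more than 1.5 times on omission of any 1 NR library with the same genes tested (306 to 520), and that of higher genes fell to 514 without LT-HSC NR library 1. With the filter on low counts applied again, which brought in up to 22204 genes, the counts were 375 higher without LT-HSC NR library 2 and 171 lower without ST-HSC NR library 1.

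The 20 largest rises that met the rule for named genes ranged from 2.30 to 3.54 on the log2 scale. Sfrp1, a secreted modulator of Wnt signalling, led them with 8.82, 12.7 and 9.84 CPM in LT-HSCs against 0.966, 0.628 and 1.11 CPM in ST-HSCs (log2 change 3.54 ± 0.26, edgeR adjusted p = 4.37e-06). Gbp9 and Gbp8, interferon-inducible guanylate-binding proteins, had log2 changes of 3.47 ± 0.27 and 2.39 ± 0.21. Igf2bp2, an RNA-binding protein of the fetal growth programme, measured 29.3, 27.6 and 29.9 CPM in LT-HSCs against 3.67, 3.74 and 3.97 CPM in ST-HSCs (log2 change 2.93 ± 0.13). Its replicates lay close together in both cell types. Evc and Evc2, a pair of proteins at the base of the primary cilium, were both among the 20, with log2 changes of 2.45 ± 0.41 and 2.80 ± 0.18. Surface and matrix genes included the collagen receptor Ddr1 (2.49 ± 0.45), the laminin receptor Bcam (2.34 ± 0.20), Tm4sf1 (2.36 ± 0.46) and Lsr (2.30 ± 0.23). Clu, the extracellular chaperone clusterin, was at 64.5, 70.4 and 58.1 CPM in LT-HSCs and 9.41, 14.4 and 9.02 CPM in ST-HSCs. The cytoskeletal genes Tns2 (2.65 ± 0.16), Fscn1 (2.32 ± 0.15), Map2 (3.0 ± 0.56) and Clip3 (2.61 ± 0.40) were also in the group. Tacr1 (3.13 ± 0.64), Ahrr (2.82 ± 0.52), Cdr2l (2.52 ± 0.34), Plagl1 (2.35 ± 0.37) and Vwf completed it.

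The 20 largest falls ranged from -4.22 to -1.96. Tespa1, known from T cell receptor signalling in thymocytes, measured 2.85, 1.3 and 1.85 CPM in LT-HSCs against 43.9, 31.7 and 37.7 CPM in ST-HSCs (log2 change -4.22 ± 0.23, edgeR adjusted p = 2.73e-07). No other named gene had a larger change in either direction. Lat2, an adaptor of immune receptor signalling, measured 19.4, 14.3 and 14.7 CPM in LT-HSCs and 102, 109 and 103 CPM in ST-HSCs. Plac8, a gene of myeloid and lymphoid progenitors, measured 3.44, 3.88 and 3.0 CPM in LT-HSCs and 28.0, 25.2 and 23.2 CPM in ST-HSCs. Cd244a, a receptor of the SLAM family, measured 10.7, 12.1 and 14.9 CPM in LT-HSCs and 55.4, 63.2 and 57.1 CPM in ST-HSCs. The replicates of these genes lay far closer to each other than the 2 cell types did, which follows from choosing large changes without overlap. Receptors and adaptors of innate cells included Cd33 (-3.06 ± 0.60), Clec4e (-2.03 ± 0.15), Siglecf (-2.00 ± 0.34) and Tyrobp (-1.96 ± 0.24). Effector genes included Gzmb (-2.47 ± 0.37), Nkg7 (-2.22 ± 0.13) and the chemokine Ccl9 (-2.34 ± 0.35). Scin, Emilin2, S1pr3, Cd52, Igfbp7, Evi2a and Pdgfrb fell between -2.64 and -1.99. Haao, an enzyme of the kynurenine route from tryptophan towards NAD, fell by 1.98 on the log2 scale. Every gene of both groups of 20 kept its call in each alternative that tested it.

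**Figure D2:**
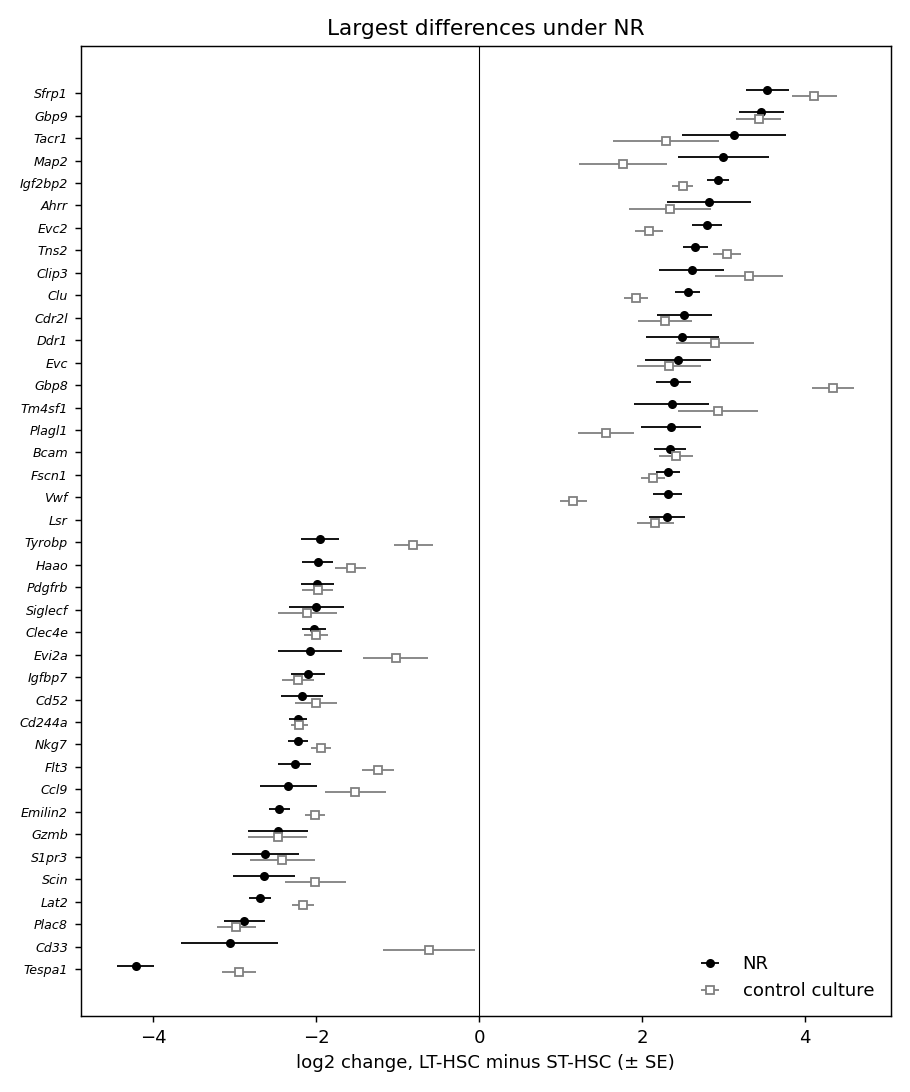
The 20 largest rises and 20 largest falls under NR as log2 change of LT-HSC minus ST-HSC with SE; filled circles are the NR libraries and open squares are the control libraries. The NR changes run from -4.22 (Tespa1) to 3.54 (Sfrp1), and the control changes of these genes lie on the same side of 0.

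Surface and reporter genes of LT-HSCs were mostly higher. This list holds 30 genes that label LT-HSCs in reporter mice, sorts or single-cell work. All 30 were tested, 17 were higher, 1 was lower and 12 were not called. The called share was 60.0%, against 6.07% of all genes tested (3.8% higher and 2.27% lower). The median log2 change was 0.57. Fgd5, used in reporter mice for HSCs, measured 82.3, 69.1 and 70.5 CPM in LT-HSCs and 29.2, 17.1 and 30.9 CPM in ST-HSCs. Procr, the endothelial protein C receptor, measured 17.8, 20.7 and 18.7 CPM in LT-HSCs and 9.57, 5.06 and 10.8 CPM in ST-HSCs. Hoxb5 measured 6.23, 7.83 and 4.92 CPM in LT-HSCs and 2.81, 2.36 and 2.38 CPM in ST-HSCs. In each of these 3 reporter genes the lowest LT-HSC library stood above the highest ST-HSC library. Their log2 changes were 1.52 ± 0.18, 1.17 ± 0.23 and 1.33 ± 0.19. Ctnnal1, which encodes alpha-catulin, changed by 1.04 ± 0.07 (edgeR adjusted p = 3.49e-06), from 54.2 to 60.0 CPM in ST-HSCs to 109 to 129 CPM in LT-HSCs. Neo1, the netrin receptor neogenin, changed by 2.17 ± 0.32, and Sult1a1, a sulfotransferase, by 1.63 ± 0.24. Cdkn1c, which encodes the cell cycle inhibitor p57, changed by 1.01 ± 0.14. The junction and guidance genes Jam2 (1.27 ± 0.15), Robo4 (0.69 ± 0.12) and Esam (0.50 ± 0.07), the retinaldehyde dehydrogenase gene Aldh1a1 (0.94 ± 0.13) and the channel gene Trpc6 (0.65 ± 0.09) were also higher. Pdzk1ip1 (0.41 ± 0.09) and Ltb (0.70 ± 0.17) were the least firm. Pdzk1ip1 lost its call without LT-HSC NR library 2 or ST-HSC NR library 1 or 3, with adjusted p between 0.0559 and 0.0818. Ltb lost it without any NR library except LT-HSC NR library 3, with adjusted p between 0.0682 and 0.131. The tetraspanin Cd63 was the 1 member that fell, from 592, 555 and 551 CPM in ST-HSCs to 399, 489 and 408 CPM in LT-HSCs (-0.39 ± 0.08). Tek, Cd9, Cd81 and Itga6 were not called, with log2 changes of 0.19 ± 0.11, 0.03 ± 0.11, 0.04 ± 0.08 and 0.29 ± 0.13.

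HSC transcription factors separated into a small set that was higher in LT-HSCs and a larger set with no call. Of 38 genes, 10 were higher and 1 was lower (28.9% called, against 6.07% of all genes tested), and the median log2 change was 0.15. Tcf15 measured 26.2, 31.8 and 24.8 CPM in LT-HSCs and 13.1, 11.3 and 13.0 CPM in ST-HSCs (1.14 ± 0.11, edgeR adjusted p = 4.04e-05). Prdm16 measured 53.5, 54.7 and 49.8 CPM in LT-HSCs and 26.7, 32.3 and 28.2 CPM in ST-HSCs (0.86 ± 0.09). Nkx2-3 measured 39.9, 41.4 and 34.9 CPM in LT-HSCs and 22.3, 18.3 and 16.3 CPM in ST-HSCs (1.03 ± 0.12). All of these regulators were about 2-fold higher and did not overlap. Egr1 and Nr4a1, immediate early genes linked to HSC quiescence, changed by 1.10 ± 0.26 and 0.58 ± 0.10. Egr1 lost its call without LT-HSC NR library 2 (adjusted p = 0.0746) or ST-HSC NR library 1 (adjusted p = 0.0693). Hlf (0.37 ± 0.09), Hoxa10 (0.58 ± 0.11) and Mycn (0.46 ± 0.12) were higher with smaller changes. Hlf and Hoxa10 lay outside the rule for named genes. The higher count was 7 without LT-HSC NR library 2 or with only the 2 groups compared, and 12 without LT-HSC NR library 3. Mycn lost its call without LT-HSC NR library 2 or ST-HSC NR library 1 or 3, with adjusted p between 0.0775 and 0.168. Myb, which drives progenitor proliferation, fell from 458, 435 and 421 CPM in ST-HSCs to 385, 353 and 330 CPM in LT-HSCs (-0.30 ± 0.06), and lost its call without LT-HSC NR library 2 (adjusted p = 0.115). Of other HSC regulators, Meis1, Gata2, Runx1 and Gfi1b had log2 changes of 0.03 ± 0.06, 0.13 ± 0.07, 0.09 ± 0.07 and 0.21 ± 0.08, none of which passed the test.

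Of 23 multipotent and lymphoid genes tested, 5 were lower and 1 was higher (26.1% called, against 6.07% of all genes tested), with a median of -0.37. The lower genes included Flt3 and Cd34, and the fall of Cd34 follows from the sort on its protein. Cd27, a TNF receptor family member, measured 65.1, 61.8 and 53.3 CPM in LT-HSCs and 116, 110 and 107 CPM in ST-HSCs (-0.89 ± 0.08). Cd52 measured 2.03, 2.40 and 1.92 CPM in LT-HSCs and 10.7, 8.45 and 9.53 CPM in ST-HSCs (-2.17 ± 0.26). Every ST-HSC library was higher for both of these surface genes. Mn1, a transcriptional coregulator, went the other way (0.73 ± 0.15). Without ST-HSC NR library 3 the median of the list was 0.01, with 7 genes lower and 1 higher.

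Of 28 granulocyte-primed genes tested, 8 were lower and none was higher (28.6% called, against 6.07% of all genes tested), and the median was -0.38. At an unadjusted edgeR p under 0.05, 15 were lower and 1 was higher, and DESeq2 called 13 lower and 0 higher. Cebpa, a master regulator of granulocyte commitment, measured 0.882, 0.790 and 0.703 CPM in LT-HSCs and 4.74, 3.77 and 3.56 CPM in ST-HSCs (-2.34 ± 0.31, edgeR adjusted p = 0.000397). Csf3r, the receptor for G-CSF, measured 23, 22.9 and 22.3 CPM in LT-HSCs and 46.7, 51.1 and 47.3 CPM in ST-HSCs (-1.09 ± 0.10). Itgal, the alpha chain of the integrin LFA-1, measured 4.32, 3.74 and 4.03 CPM in LT-HSCs and 14.9, 13.0 and 10.3 CPM in ST-HSCs (-1.66 ± 0.15). These 3 genes did not overlap between the cell types, while 20 of the 28 members were not called. Fcgr2b (-1.95 ± 0.28), which lay outside the rule for named genes, and Igfbp4 (-0.40 ± 0.06) were lower as well. Of genes for granule contents, Mpo varied from 1.7 to 44.1 CPM within LT-HSCs and from 6.43 to 41.4 CPM within ST-HSCs, with a log2 change of 0.40 ± 0.86. Elane varied from 0.185 to 8.48 CPM in LT-HSCs and from 0.441 to 6.12 CPM in ST-HSCs. Spi1, which encodes PU.1, had a log2 change of -0.23 ± 0.07 that did not pass (edgeR adjusted p = 0.0946). With the replicate block, 13 of the 28 genes were lower. In the monocyte, macrophage and dendritic cell list 3 of 16 genes were lower and 1 was higher (25.0% called). The Fc receptor chain gene Fcer1g was at 54.9, 67.7 and 59.1 CPM in LT-HSCs and at 135, 117 and 111 CPM in ST-HSCs. The MHC class II genes of the list diverged, H2-Aa being higher (1.86 ± 0.35) and H2-Ab1 lower (-0.55 ± 0.08) in LT-HSCs. H2-Aa, the 1 member called higher, was low, at 0.745 to 5.39 CPM. Cd74, also of this list, was low too (0.166 to 5.26 CPM), with 383 reads in LT-HSCs and 71 in ST-HSCs.

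Megakaryocyte and platelet genes divided by gene. Of 30 tested, 7 were higher and 4 lower (36.7% called, against 6.07% of all genes tested), with a median of 0.03. Their summed CPM overlapped between the cell types (7276 to 9051 in LT-HSCs, 6944 to 8267 in ST-HSCs). Beside Vwf, Mmrn1 (multimerin, a platelet granule protein) measured 884, 818 and 706 CPM in LT-HSCs and 379, 370 and 331 CPM in ST-HSCs (1.16 ± 0.08, edgeR adjusted p = 2.65e-06). Thbs1, which encodes thrombospondin, changed by 1.28 ± 0.26, Mmp14 by 0.93 ± 0.16, Gng11 by 0.56 ± 0.09 and Selp, P-selectin, by 0.32 ± 0.09. Selp lost its call without LT-HSC NR library 1 or 2 or ST-HSC NR library 2 or 3, with adjusted p between 0.0942 and 0.277. On the other side Gata1, the erythroid and megakaryocytic transcription factor, measured 35.7, 41.1 and 31.0 CPM in LT-HSCs and 56.6, 69.2 and 55.1 CPM in ST-HSCs (-0.75 ± 0.12). Plek (-0.81 ± 0.09), Gp5 (-0.59 ± 0.11) and F2rl2 (-0.49 ± 0.10) were lower too. Pf4 and Itga2b, abundant genes of the lineage, had log2 changes of 0.23 ± 0.14 and -0.23 ± 0.11 and were not called. Of 21 erythroid genes tested, Hbb-bt (1.94 ± 0.16) and Aqp1 (0.74 ± 0.11) were higher and Gata1 lower (14.3% called). The alpha globin genes Hba-a1 and Hba-a2 had 1 and 0 reads over the 3 LT-HSC libraries. Hbb-bt can share reads with the near-identical Hbb-bs, so its value is uncertain.

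Most of these differences were also present in control culture, which shares no library with the NR comparison. There, 696 genes were higher and 298 lower, 5.01% of the genes tested (3.51% higher and 1.5% lower). Both comparisons used 1 estimate of the spread over all 12 libraries. In fits of only the 2 groups compared, 489 genes were higher and 279 lower under NR, and 1105 higher and 509 lower in control culture. The order of the cultures by number of calls thus depended on the fit. The lower count was 165 to 193 without any 1 control library other than LT-HSC control library 1. A total of 629 genes were called the same way in both cultures, 439 higher and 190 lower, which is 52.2% of the NR calls and 63.3% of the control calls. Of the 1204 NR calls, 1147 had a control change of the same sign. Across the 10660 genes at 5 CPM or more, the log2 changes of the 2 cultures had Pearson's r of 0.78 and Spearman's rho of 0.53, given as a description over genes, which are not independent replicates. Opposite calls were made for 3 genes: Cdkn1a, Phlda3 and Rtel1. Vwf had control values of 677, 685 and 589 CPM in LT-HSCs and 303, 303 and 270 CPM in ST-HSCs, a log2 change of 1.15 ± 0.17. The difference in Vwf was therefore 1.16 ± 0.24 larger under NR on the log2 scale, but this interaction did not pass (edgeR adjusted p = 0.226). For Flt3 the change was -1.25 ± 0.20 in control culture and the interaction -1.02 ± 0.28 (edgeR adjusted p = 0.481). Procr went the other way, with 2.54 ± 0.26 in control culture and an interaction of -1.37 ± 0.35 (edgeR adjusted p = 0.389). Mecom changed by 0.93 ± 0.10 in control culture and Cd34 by -1.27 ± 0.07. The LT-HSC surface list had 18 higher members in control culture (median 0.67), the transcription factor list 10 higher (median 0.17), and the granulocyte-primed list 1 higher and 8 lower (median -0.11). Of the 30 surface genes, 3 had an interaction above 0 and 9 below 0 at an unadjusted edgeR p under 0.05. Over all genes tested these shares were 2.89% and 3.17%, and no surface gene had a called interaction.

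**Figure D3:**
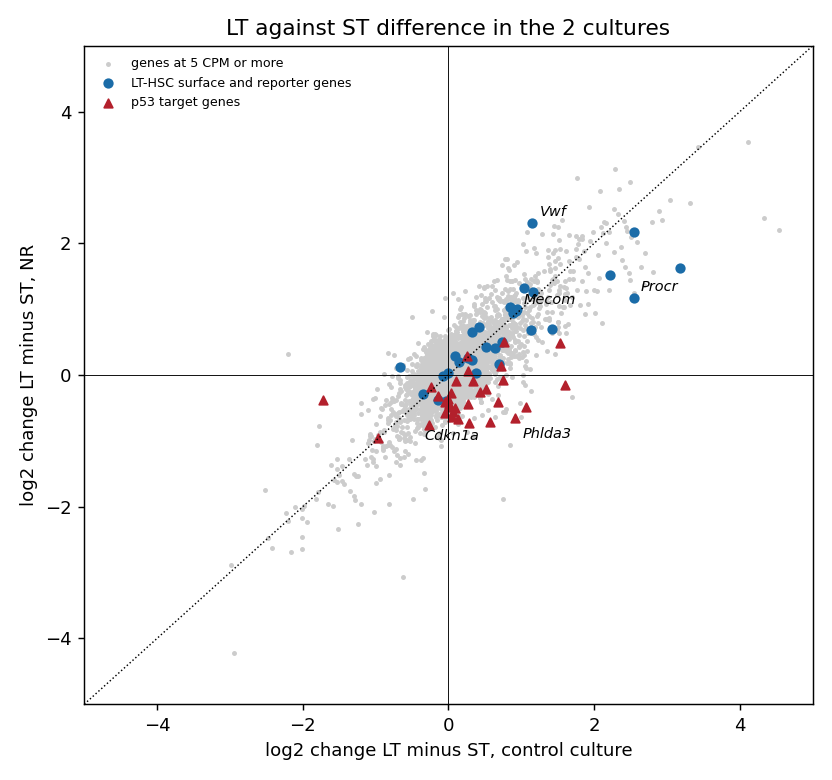
Log2 change of LT-HSC minus ST-HSC in control culture (x axis) and under NR (y axis) for genes at 5 CPM or more; circles are LT-HSC surface and reporter genes, triangles are p53 target genes, and the dotted line marks equal changes. Most circles lie above 0 on both axes, some of them, such as Procr and Vwf, well off the line. Cdkn1a and Phlda3 lie above 0 on the x axis and below 0 on the y axis.

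The difference between the 2 differences was tested for every gene. This interaction, the NR log2 difference minus the control log2 difference, was called below 0 for 2 genes, 0.0101% of the genes tested, and above 0 for none. At an unadjusted p under 0.05 there were 573 above and 628 below 0, 6.06% of the genes tested (2.89% and 3.17%), and DESeq2 called 41 above and 95 below 0. Of the 1204 genes called under NR, 350 (29.1%) had an unadjusted interaction p under 0.05. These genes were selected by their NR difference, which is itself part of the interaction. A share above that of all genes is therefore built in and is no evidence of a changed contrast. With the replicate block the counts were 3 above and 12 below 0, and without ST-HSC NR library 2 they were 10 and 7. The count below 0 was 0 without LT-HSC NR library 1 or any 1 of the 6 control libraries, and 1 without LT-HSC NR library 2 or 3. For most genes, a different LT-HSC against ST-HSC contrast in the 2 cultures was not detectable with 3 libraries a group.

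Targets of p53 had a median LT-HSC against ST-HSC difference below 0 under NR and above 0 in control culture. The transcription factor p53 responds to DNA damage and other stress by inducing genes of cell cycle arrest, apoptosis and repair. Of 32 targets tested, 14 were lower in LT-HSCs under NR and 1, Trp53i11, was higher (46.9% called, against 6.07% of all genes tested). The median log2 change was -0.40. In control culture 7 were higher and 0 lower (11 and 1 at an unadjusted edgeR p under 0.05), with a median of 0.19. The interaction was below 0 at an unadjusted p under 0.05 in 23 of the 32 and above 0 in none. Over all genes tested these shares were 3.17% below and 2.89% above 0. This list was chosen with earlier results of these data known, so its direction is no independent evidence. The count under NR rested on all libraries together: leaving out LT-HSC NR library 1, 2 or 3 gave 8, 7 and 6 lower members, and leaving out ST-HSC NR library 1, 2 or 3 gave 7, 9 and 11.

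The 250 bases before a RefSeq transcription start (build GRCm38.p6) are shown for 4 of the lower targets, with matches to the p53 decamer in capitals. A gene can have several starts, and only windows with a match were eligible. A full p53 response element holds a pair of such decamers. Of the 5 lower targets with a window that held a match, these 4 are shown, since the window of Rps27l also holds an exon of another transcript. The choice was made after their values were seen. Cdkn1a lies on the plus strand at chr17:29090729-29090978, Ccng1 on the minus strand at chr11:40755287-40755536, Bax on the minus strand at chr7:45466899-45467148 and Aen on the plus strand at chr7:78895808-78896057.
Cdkn1a: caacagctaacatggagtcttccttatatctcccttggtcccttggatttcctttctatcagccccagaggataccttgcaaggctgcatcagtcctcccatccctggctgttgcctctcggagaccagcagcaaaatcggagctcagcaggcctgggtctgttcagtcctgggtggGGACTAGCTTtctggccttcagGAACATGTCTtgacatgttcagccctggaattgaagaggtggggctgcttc
Ccng1: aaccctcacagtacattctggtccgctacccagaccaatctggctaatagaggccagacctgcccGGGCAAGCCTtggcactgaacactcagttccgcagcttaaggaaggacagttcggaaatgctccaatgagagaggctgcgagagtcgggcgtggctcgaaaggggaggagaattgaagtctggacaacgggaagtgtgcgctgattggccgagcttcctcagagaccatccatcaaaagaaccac
Bax: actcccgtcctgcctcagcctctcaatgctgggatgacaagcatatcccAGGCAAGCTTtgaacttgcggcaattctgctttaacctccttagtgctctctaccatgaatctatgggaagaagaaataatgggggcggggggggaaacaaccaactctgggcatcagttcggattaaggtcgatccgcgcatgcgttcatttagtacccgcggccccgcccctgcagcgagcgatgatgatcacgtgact
Aen: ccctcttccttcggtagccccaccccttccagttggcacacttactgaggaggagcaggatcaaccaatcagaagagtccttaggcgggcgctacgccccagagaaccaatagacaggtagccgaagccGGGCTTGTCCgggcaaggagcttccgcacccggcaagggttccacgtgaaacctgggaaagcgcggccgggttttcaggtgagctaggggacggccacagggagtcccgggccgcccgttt

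The matched decamers begin at -73 and -51 in Cdkn1a, at -185 in Ccng1, at -201 in Bax and at -121 in Aen, counted from the start site. The decamer reads the same on both strands, so 1 scan covers both. It was found in 6.24% of the 16223 windows of tested genes and in 27.0% of the 37 windows of p53 targets. For the 14 lower targets, of which 11 matched a RefSeq entry, it was found in 29.4% of 17 windows. Targets that were not called lower held it in 25.0% of windows. The share was 5.19% in genes higher and 6.85% in genes lower in LT-HSCs. A match is a description of the letters and not a measured binding site.

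Among cell cycle targets of p53, Cdkn1a, which encodes the cyclin-dependent kinase inhibitor p21, measured 77.5, 98.0 and 72.1 CPM in LT-HSCs and 149, 128 and 128 CPM in ST-HSCs under NR (-0.71 ± 0.10, edgeR adjusted p = 0.00083). In control culture it measured 30.0, 30.9 and 30.5 CPM in LT-HSCs and 19.8, 21.0 and 20.8 CPM in ST-HSCs (0.57 ± 0.11). The order of the cell types was thus opposite in the 2 cultures, without overlap in either, and the interaction of -1.28 ± 0.15 passed the test (edgeR adjusted p = 0.0235). Btg2, an antiproliferative gene, changed by -0.64 ± 0.16 under NR and by 0.06 ± 0.16 in control culture. Ccng1, which encodes cyclin G1, measured 363, 323 and 302 CPM in LT-HSCs and 569, 449 and 434 CPM in ST-HSCs under NR (-0.56 ± 0.11), with 0.06 ± 0.11 in control culture. Trp53cor1, the long noncoding RNA beside Cdkn1a, changed by -0.58 ± 0.15. Btg2 lost its call without any NR library except LT-HSC NR library 2 or ST-HSC NR library 3 (adjusted p 0.0543 to 0.106), and Ccng1 lost it without LT-HSC NR library 2 (adjusted p = 0.0822).

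Among death and survival genes, Phlda3, an inhibitor of AKT signalling, measured 38.5, 43.8 and 36.6 CPM in LT-HSCs and 76.2, 58.1 and 52.9 CPM in ST-HSCs (-0.66 ± 0.14). In control culture it measured 9.97, 12.9 and 12 CPM in LT-HSCs and 6.03, 6.87 and 5.55 CPM in ST-HSCs (0.92 ± 0.16), and the interaction was -1.57 ± 0.21 (edgeR adjusted p = 0.0478). Phlda3 and Cdkn1a were the 2 genes with a called interaction. Neither call was firm. The interaction of Cdkn1a lost its call without LT-HSC NR library 1 or any 1 control library (adjusted p 0.0535 to 0.162), and that of Phlda3 without any 1 LT-HSC NR library or control library (adjusted p 0.0535 to 0.28), while the direction of both stayed the same. Bbc3, which encodes the BH3-only protein PUMA, measured 36.5, 45.8 and 34.4 CPM in LT-HSCs and 74.2, 62.9 and 60.0 CPM in ST-HSCs (-0.76 ± 0.12, edgeR adjusted p = 0.00207). Bax, the apoptosis effector it activates, changed by -0.50 ± 0.12, and Aen, an apoptosis-linked nuclease gene, by -0.32 ± 0.08. Trp53inp1, a cofactor of p53, measured 82.3, 60.2 and 68.8 CPM in LT-HSCs and 128, 107 and 102 CPM in ST-HSCs (-0.67 ± 0.13), and lost its call without LT-HSC NR library 2 (adjusted p = 0.0695). Control values of Bbc3 and Trp53inp1 differed by -0.26 ± 0.13 and 0.13 ± 0.14, neither of which passed the test. Their interactions of -0.49 ± 0.18 and -0.80 ± 0.19 did not pass either (edgeR adjusted p = 0.647 and 0.307).

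Stress, secreted and repair targets completed the 14. Sesn2, a sestrin that restrains mTOR complex 1, measured 76.5, 85.2 and 73.4 CPM in LT-HSCs and 109, 103 and 108 CPM in ST-HSCs (-0.44 ± 0.07). Gdf15, a secreted stress cytokine, changed by -0.72 ± 0.18 under NR and by 0.28 ± 0.20 in control culture. The excision repair genes Xpc and Ercc5 changed by -0.36 ± 0.08 and -0.49 ± 0.13, and Rps27l by -0.41 ± 0.10. Mdm2, which encodes the E3 ligase that limits p53, was at 121, 134 and 126 CPM in LT-HSCs and 146, 166 and 149 CPM in ST-HSCs, just outside the threshold (-0.28 ± 0.08, edgeR adjusted p = 0.0502). Eda2r and Ddit4l were not called under NR (-0.42 ± 0.16 and -0.15 ± 0.19). Trp53i11, the 1 higher member, changed by 0.51 ± 0.08 under NR and 0.77 ± 0.08 in control culture. Bax, Gdf15, Xpc, Ercc5, Rps27l, Aen and Trp53cor1 lay outside the rule for named genes and were named after their values were seen.

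**Figure D4:**
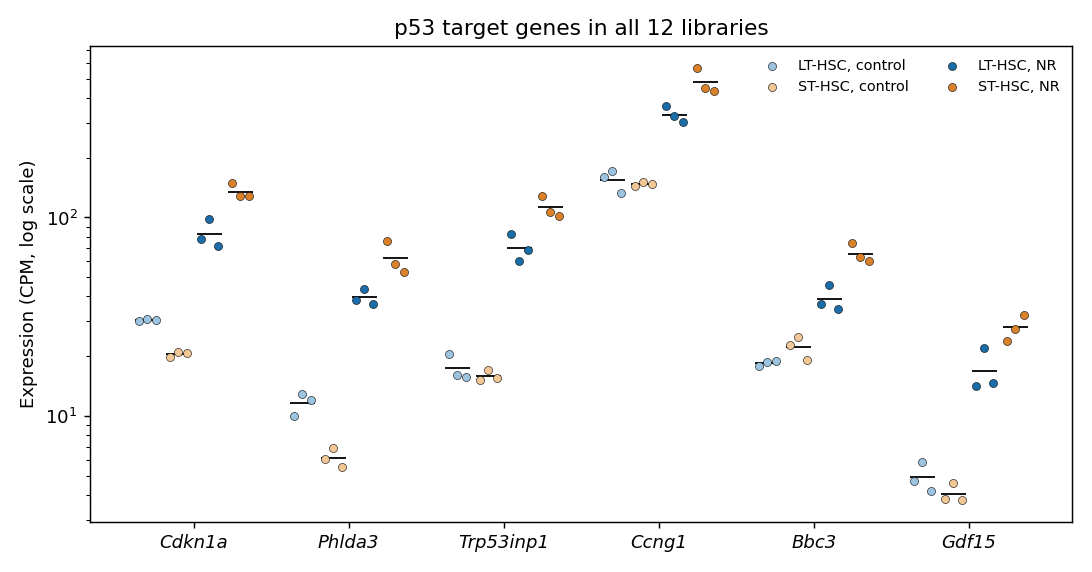
Expression of 6 p53 target genes in all 12 libraries, in CPM on a log scale; points are libraries and short lines are group means. Under NR the ST-HSC libraries of Cdkn1a and Phlda3 (128 to 149 and 52.9 to 76.2 CPM) sit above the LT-HSC libraries, and in control culture they sit below.

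Rtel1, a helicase for telomere and genome maintenance, was the third gene called in opposite directions. It measured 112, 110 and 106 CPM in LT-HSCs and 80.4, 83.5 and 92.0 CPM in ST-HSCs under NR (0.36 ± 0.07). In control culture it measured 88.3, 94.1 and 96.0 CPM in LT-HSCs and 117, 107 and 120 CPM in ST-HSCs (-0.31 ± 0.07). The 2 cell types did not overlap in either culture, but the interaction of 0.67 ± 0.10 did not pass (edgeR adjusted p = 0.0779). Rtel1 is named because it was 1 of the 3 opposite calls, after its values were seen.

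Mitotic genes leaned towards LT-HSCs under NR. Of 40 genes of G2 and mitosis, 39 had a positive log2 change with a median of 0.32, 5 were called higher and 0 lower (25 and 0 at an unadjusted edgeR p under 0.05, 13 and 0 by DESeq2). The called share was 12.5%, against 6.07% of all genes tested. In control culture 7 had a positive change, the median was -0.09, and 0 were called (0 higher and 4 lower at an unadjusted p). Mki67, which encodes the proliferation antigen Ki-67, measured 610, 519 and 468 CPM in LT-HSCs and 324, 477 and 339 CPM in ST-HSCs (0.49 ± 0.13, edgeR adjusted p = 0.0479). Bub1, a spindle checkpoint kinase, measured 153, 127 and 113 CPM in LT-HSCs and 85.4, 104 and 92.8 CPM in ST-HSCs (0.48 ± 0.11). Cenpf (0.59 ± 0.15), Anln (0.63 ± 0.16) and Bub1b (0.42 ± 0.11) were the other called genes. ST-HSC NR library 2 stood nearer to the LT-HSC libraries than the other ST-HSC libraries did: Ccnb1, which encodes cyclin B1, was at 212 CPM there and at 135 and 131 CPM in the others, and at 223, 211 and 170 CPM in LT-HSCs. The count rested on single libraries. It was 32 without ST-HSC NR library 2, 9 without LT-HSC NR library 3, 1 without LT-HSC NR library 2, and 0 without LT-HSC NR library 1 or ST-HSC NR library 1 or 3. With the replicate block it was 13.

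Regulators of G1 included a kinase and a cyclin with larger changes. Cdk6, a kinase known to time the exit of HSCs from quiescence, measured 229, 166 and 177 CPM in LT-HSCs and 400, 431 and 438 CPM in ST-HSCs (-1.15 ± 0.11, edgeR adjusted p = 2.74e-05). Ccnd1, which encodes its partner cyclin D1, measured 82.0, 80.3 and 90.8 CPM in LT-HSCs and 46.9, 51.0 and 46.6 CPM in ST-HSCs (0.81 ± 0.07). This kinase and cyclin thus differed in opposite directions, as they did in control culture (-1.0 ± 0.11 and 0.69 ± 0.07). Of 45 genes of G1/S and replication these were 2 of 4 called (8.89%, against 6.07% of all genes tested). Mcm3 (-0.24 ± 0.06) and Cdt1 (-0.27 ± 0.07) were the others, both lower, and the median was 0.00. Mcm3 kept its call only without ST-HSC NR library 2 (omission of any other gave adjusted p 0.0519 to 0.147) and Cdt1 only without ST-HSC NR library 3 (otherwise 0.07 to 0.139). In the list of cell cycle inhibitors and quiescence genes, Cdkn1c, Hes1 (1.19 ± 0.27), Egr1, Ndn and Pdk4 (1.33 ± 0.28) were higher, and Cdkn1a, Btg2 and Btg1 lower, of 29 tested (27.6% called). The higher count fell to 3 without LT-HSC NR library 2, and the lower count to 1 without LT-HSC NR library 3 or ST-HSC NR library 1, while the replicate block gave 6 lower. Btg1 lost its call without LT-HSC NR library 1 or 3 or ST-HSC NR library 1 or 2 (adjusted p 0.0818 to 0.167), Hes1 without LT-HSC NR library 2 or ST-HSC NR library 1 (adjusted p = 0.0949 and 0.0784), and Pdk4 without LT-HSC NR library 1 (adjusted p = 0.054).

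Of 29 imprinted genes tested, 8 were higher and 0 lower (10 and 1 at an unadjusted edgeR p under 0.05, 10 and 1 by DESeq2), with a median of 0.18, and 8 were higher in control culture. The share called under NR was 27.6%, against 6.07% of all genes tested. Ndn, which encodes the growth suppressor necdin, measured 42.6, 54.3 and 52.2 CPM in LT-HSCs and 15.8, 17.2 and 16.8 CPM in ST-HSCs (1.58 ± 0.12, edgeR adjusted p = 6.4e-06). Grb10, an adaptor that dampens insulin and IGF1 receptor signalling, measured 176, 177 and 157 CPM in LT-HSCs and 55.9, 67.8 and 75.8 CPM in ST-HSCs (1.35 ± 0.10). Igf2r, a clearance receptor for IGF2, measured 19.3, 17.9 and 24.4 CPM in LT-HSCs and 9.08, 6.12 and 8.71 CPM in ST-HSCs (1.36 ± 0.21). These 3 genes did not overlap between the cell types. Grb10 had a smaller difference in control culture, 0.42 ± 0.10, and an interaction of 0.94 ± 0.14 that did not pass (edgeR adjusted p = 0.0883). Cdkn1c, Plagl1 and the low genes Snrpn (2.20 ± 0.42), Dlk1 (2.53 ± 0.50) and Peg3 (2.80 ± 0.67) made up the rest. Dlk1 and Peg3 lay outside the rule for named genes. Without ST-HSC NR library 3 the median of the list was 0.97.

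Adhesion genes changed in both directions. Of 37 tested, 6 were higher and 8 lower (37.8% called, against 6.07% of all genes tested), with a median of -0.08. Without LT-HSC NR library 2 there were 5 of each. The higher genes were Jam3, Jam2, Esam, Robo4, Neo1 and Selp. Jam3, a junction protein, measured 7.85, 8.38 and 9.14 CPM in LT-HSCs and 2.01, 2.01 and 1.76 CPM in ST-HSCs (2.13 ± 0.18, edgeR adjusted p = 1.31e-05). Among the lower genes were leukocyte integrins. Itgb2, the beta chain that pairs with Itgal in LFA-1, measured 41.3, 35.4 and 37.3 CPM in LT-HSCs and 94.2, 72.8 and 96.7 CPM in ST-HSCs (-1.21 ± 0.10). Itgb7 (-1.01 ± 0.11), Pecam1 (-0.58 ± 0.08) and the hyaluronan receptor gene Cd44 (-0.44 ± 0.08) were lower too. Cd44 lost its call without LT-HSC NR library 2 (adjusted p = 0.0772).

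Receptors for cytokines and other ligands also divided, with 6 of 47 higher and 6 lower (25.5% called, against 6.07% of all genes tested) and a median of -0.09. The LT-HSC side included Fzd3, a Wnt receptor (1.77 ± 0.21), Eng, the TGF-beta coreceptor endoglin (0.53 ± 0.07), the STAT5 feedback gene Cish (0.85 ± 0.18), Il27ra (0.30 ± 0.08) and Ramp2 (3.58 ± 0.43). Ramp2, a receptor activity-modifying protein, was low throughout, at 2.38, 4.15 and 3.14 CPM in LT-HSCs and 0.331, 0.220 and 0.242 CPM in ST-HSCs. The ST-HSC side included, besides Flt3 and Csf3r, Il1r1, the interleukin 1 receptor, at 16.7, 14 and 14 CPM in LT-HSCs and 30.8, 30.1 and 30.4 CPM in ST-HSCs (-1.03 ± 0.13, edgeR adjusted p = 0.000284). Il10rb (-0.65 ± 0.11), Ramp1 (-0.46 ± 0.09) and the interferon receptor chain Ifnar2 (-0.40 ± 0.08) were lower as well. Ramp1 and Ramp2, close relatives, thus differed in opposite directions. Cish lost its call without LT-HSC NR library 2 (adjusted p = 0.0506), and Il27ra without any NR library except ST-HSC NR library 2 (adjusted p 0.0531 to 0.159).

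**Figure D5:**
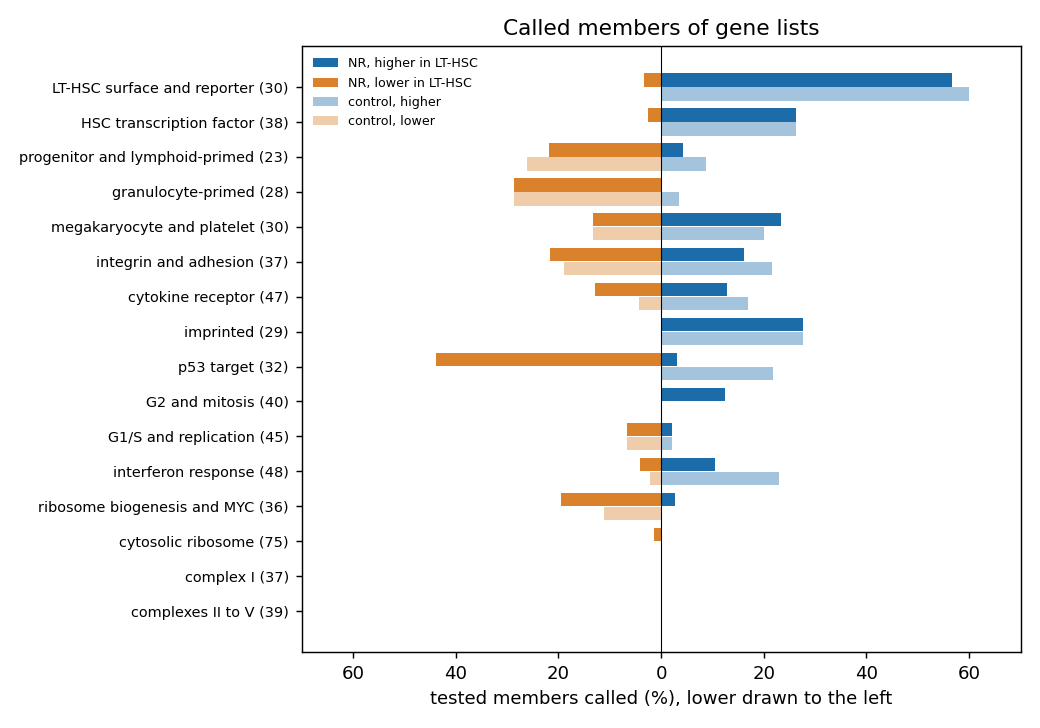
Share of tested members called in each of 16 gene lists, higher to the right and lower to the left in percent, with the number tested in brackets; dark bars are NR and pale bars are control culture. LT-HSC surface genes reach 17 of 30 higher under NR, and p53 targets reach 14 of 32 lower under NR and 7 of 32 higher in control culture.

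Interferon response genes had 5 of 48 members higher and 2 lower under NR (median 0.24), and 11 higher and 1 lower in control culture (median 0.33). The difference between these counts was not tested. The called shares were 14.6% under NR and 25.0% in control culture, against 6.07% and 5.01% of all genes tested. Iigp1, an interferon-induced GTPase, measured 21.1, 13.5 and 12.1 CPM in LT-HSCs and 7.31, 5.34 and 5.42 CPM in ST-HSCs (1.37 ± 0.30). Irf7 (1.61 ± 0.37), Ifi44 (1.35 ± 0.34), Oasl2 (0.64 ± 0.16) and Ifih1 (0.52 ± 0.13) were higher as well. LT-HSC NR library 1 had the highest value of all 6 libraries in each of these 5 genes, such as 31.8 CPM of Ifi44 against 12.1 and 14.3 CPM in the other LT-HSC libraries. Without that library none of the 5 was called and the list's median was 0.06. Gbp8 and Gbp9, named above among the largest rises, are not in this list and kept their calls without that library. Without LT-HSC NR library 3 there were 9 higher, and without ST-HSC NR library 1, 2 or 3 there were 3, 1 and 1. Ifi27 (-0.61 ± 0.09) and, among MHC and antigen genes, Tap1 (-0.28 ± 0.06), Tap2 (-0.52 ± 0.06) and H2-DMa (-0.63 ± 0.08) were lower. Tap2, a peptide transporter subunit, measured 187, 198 and 181 CPM in LT-HSCs and 285, 261 and 264 CPM in ST-HSCs. Tap1 lost its call without LT-HSC NR library 2 (adjusted p = 0.0732) or ST-HSC NR library 2 (adjusted p = 0.055).

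Of 25 NF-kB and inflammatory genes 4 were called (16.0%, against 6.07% of all genes tested), and of 27 immediate early and ERK feedback genes 7 (25.9%). Traf1, a survival adaptor, was higher at 23.1, 25.2 and 24.2 CPM in LT-HSCs against 14.9, 12.5 and 15.7 CPM in ST-HSCs (0.75 ± 0.14). The chemokine genes Ccl3 (-1.88 ± 0.36) and Ccl2 (-2.15 ± 0.42) and the TNF family ligand Tnfsf4 (-0.63 ± 0.17) were lower. Tnfsf4 lost its call without any NR library except LT-HSC NR library 2 (adjusted p 0.056 to 0.152). In the immediate early and ERK list, 5 were higher and 2 lower. Dusp4, a phosphatase that dampens ERK, measured 66.1, 59.8 and 63.1 CPM in LT-HSCs and 41.2, 47.1 and 45.6 CPM in ST-HSCs (0.50 ± 0.08), while its relative Dusp6 was lower (-0.26 ± 0.07). Spry4 (0.85 ± 0.21) and Etv5 (0.33 ± 0.08) were higher. Of these, Dusp4 kept its call on leaving out any NR library, while Dusp6, Spry4 and Etv5 lost theirs (adjusted p up to 0.172, 0.101 and 0.174), and so did the count, which fell to 2 higher without LT-HSC NR library 2 and to 0 lower without LT-HSC NR library 3 or ST-HSC NR library 1 or 2.

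Respiratory chain genes did not separate the cell types at this depth. None of 37 complex I subunits was called by edgeR, DESeq2 or limma-voom, 0 had an unadjusted p under 0.05, and their log2 changes ran from -0.16 to 0.09. Of 39 subunits of complexes II to V none was called by edgeR (0 higher and 2 lower at an unadjusted p, 0 higher and 1 lower by DESeq2), with log2 changes from -0.22 to 0.09. Among genes of the mitochondrial genome, mt-Nd6 was the 1 of 8 called, at 80.3, 94.1 and 86.5 CPM in LT-HSCs and 104, 114 and 102 CPM in ST-HSCs (-0.29 ± 0.07). It lost its call without LT-HSC NR library 1 or 3 or ST-HSC NR library 1 or 2 (adjusted p 0.0522 to 0.0915). Of 35 glycolysis and TCA cycle genes, the hexokinase gene Hk2 (0.74 ± 0.14), the phosphofructokinase gene Pfkp (0.50 ± 0.07) and the lactate dehydrogenase gene Ldhb (0.66 ± 0.09) were higher, and Pgam1 (-0.45 ± 0.09) was lower. These made up 11.4% of the list, against 6.07% of all genes tested. Pfkp measured 197, 215 and 188 CPM in LT-HSCs and 134, 145 and 144 CPM in ST-HSCs. Pgam1 lost its call without ST-HSC NR library 1 (adjusted p = 0.0544).

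A list of 30 genes that make or use NAD was called at 6.67%, near the 6.07% of all genes tested. Of its members, 2 were higher and 0 lower (4 and 2 at an unadjusted edgeR p under 0.05, 3 and 1 by DESeq2), with a median of -0.06. Haao, named above among the largest falls, is not in this list, whose lowest log2 change was -1.18. Cd38, a surface enzyme that consumes NAD, measured 4.70, 5.43 and 9.69 CPM in LT-HSCs and 2.92, 1.73 and 2.59 CPM in ST-HSCs (1.45 ± 0.29, edgeR adjusted p = 0.00771). Naprt, which makes NAD from nicotinic acid, was at 35.7, 43.7 and 35.9 CPM in LT-HSCs and 32.7, 25.2 and 25.0 CPM in ST-HSCs (0.47 ± 0.11). Nmrk1, the kinase that phosphorylates NR on its way to NAD, was at 14.2, 16.6 and 14.2 CPM in LT-HSCs and 16.4, 12.8 and 17.7 CPM in ST-HSCs (-0.06 ± 0.15, edgeR adjusted p = 0.999). Nampt, the enzyme of the nicotinamide salvage route, changed by -0.19 ± 0.10 and Sirt1, an NAD-dependent deacetylase, by 0.29 ± 0.14, and neither passed. Naprt lost its call without LT-HSC NR library 1 or 2 or ST-HSC NR library 2 or 3 (adjusted p 0.0808 to 0.185). Without LT-HSC and ST-HSC NR libraries 3 together, neither Cd38 nor Naprt was called (adjusted p = 0.055 and 0.141).

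Translation genes leaned slightly towards ST-HSCs. Of 75 cytosolic ribosomal protein genes, 74 had a negative log2 change under NR with a median of -0.15 (73 and -0.09 in control culture). Rps15a was the 1 called under NR (147, 142 and 133 CPM in LT-HSCs, 183, 194 and 165 CPM in ST-HSCs, -0.36 ± 0.07). The count of lower genes was 34 at an unadjusted p, 28 by DESeq2, 26 with upper-quartile factors, 12 with the replicate block and 30 without ST-HSC NR library 3, while the median stayed between -0.25 and -0.10 on omission of a library. Ribosome biogenesis and MYC genes had 7 of 36 lower and 1 higher, with a median of -0.17 (4 lower, 0 higher and -0.13 in control culture). The share called under NR was 22.2%, against 6.07% of all genes tested. Gnl3, a nucleolar GTPase, measured 159, 157 and 159 CPM in LT-HSCs and 209, 204 and 204 CPM in ST-HSCs (-0.38 ± 0.05). Myc measured 347, 394 and 320 CPM in LT-HSCs and 452, 451 and 426 CPM in ST-HSCs (-0.32 ± 0.07), the reverse of its relative Mycn. The count was 2 lower without LT-HSC NR library 3 or ST-HSC NR library 1 or 2, 11 without ST-HSC NR library 3, and 11 with the replicate block. Myc lost its call without LT-HSC NR library 3 or ST-HSC NR library 1 or 2 (adjusted p 0.0581 to 0.071).

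Of 37 genes of the integrated stress response, 4 were higher and 2 lower (16.2% called, against 6.07% of all genes tested). There were 2 higher without LT-HSC NR library 1 or 2, and 7 higher without ST-HSC NR library 3. Nupr1 measured 29.8, 37.1 and 32.0 CPM in LT-HSCs and 8.97, 14.3 and 16.7 CPM in ST-HSCs (1.31 ± 0.18). Trib3 (0.93 ± 0.12) was higher and Vldlr (-0.91 ± 0.18) and Sesn2, also a member of the p53 list, lower, and the median was 0.10. Of 34 NRF2 and antioxidant genes, 2 were higher and 3 lower (14.7% called, against 6.07% of all genes tested). The higher count was 0 without LT-HSC NR library 1 or 2 or ST-HSC NR library 1, and 1 without ST-HSC NR library 3, and the replicate block gave 4 higher and 5 lower. Gpx1, a glutathione peroxidase, measured 925, 984 and 833 CPM in LT-HSCs and 1346, 1203 and 1138 CPM in ST-HSCs (-0.43 ± 0.07), and the pentose phosphate enzyme gene Taldo1 changed by -0.47 ± 0.09. Of 40 lysosome and autophagy genes, 3 were lower (7.5%, near the 6.07% of all genes tested), and 1 was lower without ST-HSC NR library 1. Among the 3 was the autophagy receptor gene Sqstm1 (353, 388 and 314 CPM in LT-HSCs, 441, 461 and 476 CPM in ST-HSCs, -0.38 ± 0.07). Of 29 DNA methylation and Polycomb genes, Cbx6 (0.52 ± 0.07), Cbx7 (0.54 ± 0.12) and Hdac9 (0.91 ± 0.17) were higher, 10.3% of the list, against 6.07% of all genes tested. Cbx7 lost its call without LT-HSC NR library 1 (adjusted p = 0.0525) or ST-HSC NR library 1 (adjusted p = 0.0679).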

How the data were processed

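RNA-seq libraries were made from cultured mouse HSCs with the SMART-seq v4 kit from 2.5 ng of RNA and the Nextera XT kit, per the labels' protocols. Read counts per gene for 12 libraries were deposited by the authors as 1 table of whole numbers. FastQC 0.11.2, STAR 2.5.0b and HTSeq 0.6.1 are named, per the submitters' processing notes. No source used here gives the genome build, annotation or strand setting, so overlapping and antisense genes may share reads. All sample columns of the table were used. Summary rows that name no gene entered neither the library sizes nor the tests. Their largest classes were reads outside annotated features, with 8.69% to 28.5% of a library, and ambiguous reads, with 3.3% to 4.38%. Of 53465 gene identifiers, 53274 were given a symbol from GENCODE M21.

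The filter on low counts was edgeR's filterByExpr with the 4 groups, at a count of 10 and a total of 15, and 19830 genes passed it. Counts were scaled with TMM and fitted with edgeR 4.0.16 (R 4.3.3, limma 3.58.1) as 4 group means over 12 libraries, with 8 residual degrees of freedom and a biological coefficient of variation of 0.402. The quasi-likelihood test was two-sided, with Benjamini-Hochberg adjustment over all genes tested and a threshold of 0.05. The SE is the log2 change divided by the square root of the F statistic. The interaction is the NR difference minus the control difference. The procedure was tested on simulated data. Libraries of a group differed by far more than sampling noise (chi-square per degree of freedom 17.0 to 32.3), so none was counted as a duplicate.

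Deviations from the group means had r of 0.74, 0.15 and 0.84 between same-numbered NR libraries, so those numbered 2 barely deviated together. LT-HSC NR library 2 went more with ST-HSC NR library 1 (r = 0.37). In control culture same-numbered libraries had r of 0.42, -0.23 and 0.43. The replicate number is thus an uncertain pairing. The main fit did not use it, so its p-values are unpaired. The replicate block used it across both cultures and is not a pairing of the NR libraries alone. Alternatives were other scalings, DESeq2 (version 1.42.0), quality-weighted limma-voom, other filters, fits of only the groups compared, a replicate block, the share of reads in no feature as a covariate, and omission of libraries. Unless stated, omission of a library kept the same genes tested.

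The members and gene lists were chosen with earlier results of these data known. Named genes are the 20 largest called rises and falls with a mean of at least 5 CPM in the higher group, no overlap between groups and an established symbol; up to 6 called members per list and direction; all sort and LT-HSC surface markers; members with a role that needs to be given as not called; and called interactions. Promoters came from RefSeq (GRCm38.p6) by symbol, and 25 of 32 p53 targets matched. The depth per library, between 24589718 and 35456821 assigned reads, sets the counting error, which is small for genes above 5 CPM. Some named members of the lists are counted but not reported here.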

Additional observations from a re-analysis of the deposited data

Results flagged for a closer look

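The LT-HSC minus ST-HSC difference was not the same in the 2 cultures for Cdkn1a, with an interaction of -1.28 ± 0.15 on the log2 scale (edgeR adjusted p = 0.0235). All 3 LT-HSC libraries stood below all 3 ST-HSC libraries under NR and above them in control culture. For Phlda3 the interaction was -1.57 ± 0.21 (edgeR adjusted p = 0.0478), with the same order of libraries. Reads in no annotated feature took 28.5% and 26.2% of the NR libraries numbered 3. Without those 2 libraries the interactions were -1.29 and -1.69 (adjusted p = 0.0177 and 0.025). Neither was called without LT-HSC NR library 1 or any 1 control library, and that of Phlda3 was also lost without LT-HSC NR library 2 or 3.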

How the results depend on the processing

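The 176 named genes called under NR kept their direction in each alternative that gave them a value, and 99 of them kept their call in each. Genes higher under NR numbered 753, 489 in a fit of only the 2 groups, and 514 to 750 on omission of 1 library with the same genes tested (375 to 681 with the filter applied again). Genes lower under NR numbered 451, but 765 with upper-quartile factors, 957 by DESeq2, 899 at a mean of at least 5 CPM, 279 with only the 2 groups, 700 with the covariate, and 306 to 520 on omission of 1 library (171 to 451 with the filter applied again). Genes higher in control culture numbered 696, but 1093 by DESeq2, 1134 by limma-voom, 1105 with only the 2 groups, and 470 to 566 on omission of 1 library (406 to 643 with the filter applied again). Genes lower there numbered 298, but 537 by DESeq2, 722 by limma-voom, 505 at a mean of at least 5 CPM, 509 with only the 2 groups, 554 with the covariate, and 165 to 234 on omission of 1 library (108 to 137 with the filter applied again). Interactions were above 0 for 0 genes by edgeR (573 at an unadjusted p under 0.05), but for 1 with upper-quartile factors, 41 by DESeq2, 2 by limma-voom, 10 without a filter, 10 at a mean of at least 5 CPM, 3 with the covariate, 1 without the 2 libraries with over 20% of reads in no feature, and 0 to 10 on omission of 1 library (0 with the filter applied again). They were below 0 for 2 genes, but for 5 with upper-quartile factors, 95 by DESeq2, 33 without a filter, 27 at a mean of at least 5 CPM, 7 with the covariate, and 0 to 7 on omission of 1 library (0 to 2 with the filter applied again).

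With the replicate block, 1014 genes were higher and 628 lower under NR, and interactions were above 0 for 3 and below 0 for 12. A block for each number within each treatment, added after seeing the data, gave 1118 higher and 668 lower under NR, 484 lower in control culture, and 4 interactions above and 16 below 0. The cause of these shifts was not tested. Genes near 1 CPM or below rest on few reads and carry the widest errors.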
